A study of Mus musculus with 2 samples.

Results

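The Mir29 family is a set of 4 microRNA genes, Mir29a, Mir29b-1, Mir29b-2 and Mir29c, that were followed here in the facial prominences of mouse embryos. They were chosen by name, not by a measured value, and all 4 were found among the 1973 microRNA genes counted. MicroRNAs are short RNAs that pair through their seed, bases 2 to 8, with messenger RNAs and lower their translation and stability. Members of this family are known as repressors of collagens, elastin, fibrillin and other matrix genes and of enzymes that add or remove DNA methylation, and they are known to rise as tissues mature. The facial prominences are swellings of mesenchyme, much of it from the neural crest, under a covering epithelium, and they fuse to form the face.

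Small RNAs, labelled as shorter than 30 bases, were sequenced from total RNA of healthy B6NCrl embryos at embryonic day 11.5. There was 1 group with 2 biological replicates, which were tissue pools of 109 embryos (replicate 1) and 88 embryos (replicate 2) of both sexes under the same donor entry. No mutation, transgene or treatment is named, and other ages and messenger RNA were not analysed here, so neither a rise with age nor an effect on matrix genes could be measured. Sense counts at microRNA genes came to 1941745 in replicate 1 and 2319881 in replicate 2. Levels are given in CPM, which are sense counts per 1000000 of that total, so 1 count was worth 0.515 CPM in replicate 1 and 0.431 CPM in replicate 2. With 2 libraries of 1 group no condition can be compared, and no two-sided exact test over them can go below p = 0.5.

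The mature sequences are shown first because they set which member a read can be assigned to. They were taken from RefSeq (GRCm38.p6), which held all 4 hairpins at the same positions as the GENCODE annotation. The seed-family products come from the 3p arm, and the capitals mark the seed.
miR-29a-3p: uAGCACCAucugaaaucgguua
miR-29b-3p: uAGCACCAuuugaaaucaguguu
miR-29c-3p: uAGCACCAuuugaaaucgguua
All 3 sequences carry the seed AGCACCA, which no mature sequence outside the 4 genes has among the 1738 entries of the table. Counted from 1 at the 5′ end, miR-29a-3p and miR-29c-3p differ by a single substitution, C10U (the base of miR-29a-3p first). The sequences of miR-29c-3p and miR-29b-3p are the same up to position 17 and differ from position 18 on, by G18A, U21G and A22U.

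The sequence miR-29b-3p is made by both Mir29b-1 and Mir29b-2, with all 23 bases identical. The longest run that both hairpins share has 25 bases and holds the whole of it.
Mir29b-1 and Mir29b-2: ucuagcaccauuugaaaucaguguu
Among the mature sequences only the 5p arms separate these genes, and they are shown with bases 2 to 8 in capitals.
miR-29b-1-5p: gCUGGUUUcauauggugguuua
miR-29b-2-5p: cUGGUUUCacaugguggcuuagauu
Over the 21 bases in which they overlap these arms differ by U11C and U19C, counted on miR-29b-1-5p with its own base first. No stretch of 18 bases in the Mir29a hairpin occurs in another hairpin of the table. Of the 22-base stretches, 5 of 50 in Mir29b-1, 4 of 60 in Mir29b-2 and 1 of 67 in Mir29c occur in another hairpin. The count tables give 1 value per gene, so the arms of a hairpin cannot be told apart in them.

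The 4 genes lie as pairs on different chromosomes, each pair with 1 Mir29b gene upstream (positions are GRCm38, mm10, from GENCODE M21). On chromosome 6, minus strand, Mir29b-1 (ENSMUSG00000065604, 31063023 to 31063093) lies 275 bases before Mir29a (ENSMUSG00000065610, 31062660 to 31062747). Mir29b-1 overlaps 2 bases of exon 1 of the long noncoding RNA Gm27019 on the same strand, and Mir29a overlaps no other annotated gene. On chromosome 1, plus strand, Mir29b-2 (ENSMUSG00000065412, 195037040 to 195037120) lies 426 bases before Mir29c (ENSMUSG00000065548, 195037547 to 195037634). Both are inside exon 3 of a retained-intron transcript of the noncoding gene A330023F24Rik on the same strand. On the opposite strand they lie under an untranslated part of exon 11 of Cd46, which encodes a complement regulator.

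**Figure D1:**
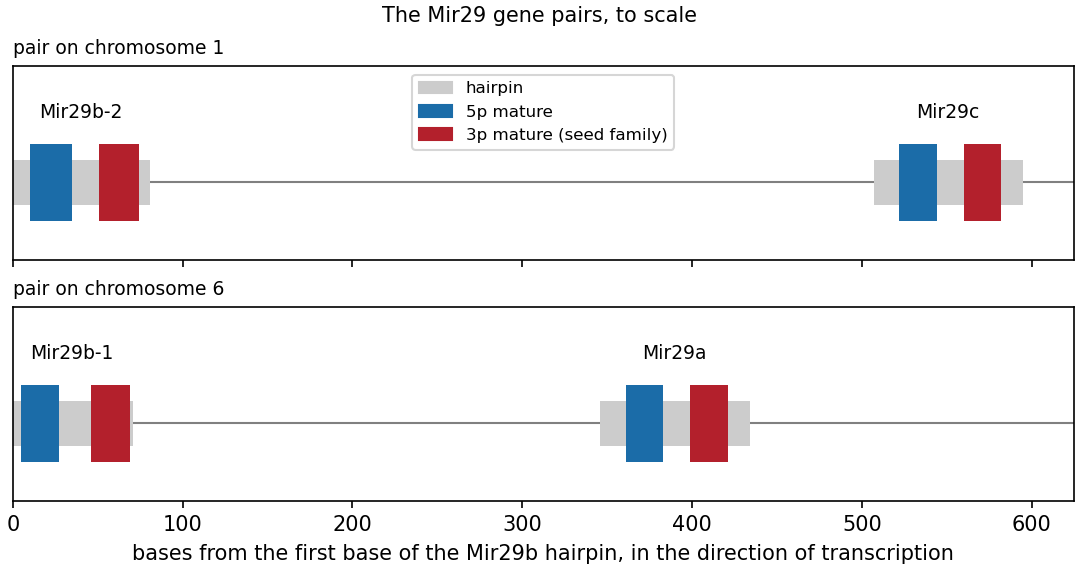
Positions of the hairpins (grey) and mature sequences (5p blue, 3p red) of both Mir29 pairs, in bases from the first base of the Mir29b hairpin along the direction of transcription. The Mir29b gene comes first in both pairs, with a gap of 426 bases to Mir29c on chromosome 1 and of 275 bases to Mir29a on chromosome 6.

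Mir29c was the most abundant member. It had 239 sense counts in replicate 1 and 256 in replicate 2, which is 123 CPM (95% interval 108 to 140) and 110 CPM (97.2 to 125), or 117 ± 9.00 CPM (SD, n = 2). Mir29a followed with 149 and 162 counts, which is 76.7 CPM (64.9 to 90.1) and 69.8 CPM (59.5 to 81.5), or 73.3 ± 4.88 CPM. Both genes were at similar levels in both pools, and the values of Mir29c did not overlap those of Mir29a. Intervals throughout are exact (Clopper-Pearson) binomial intervals and cover counting error only, since no molecular identifiers are named.

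The Mir29b genes were almost without counts. Mir29b-1 had 1 count in replicate 1 and 4 in replicate 2, which is 0.515 CPM (0.0130 to 2.87) and 1.72 CPM (0.470 to 4.41). Mir29b-2 had 4 counts in replicate 1 and 0 in replicate 2, which is 2.06 CPM (0.561 to 5.27) and 0 CPM. The exact interval of the latter ends at 1.59 CPM, and the level of 3 counts, used as a limit for 0, is 1.29 CPM. Their intervals overlapped in each library, so no order of the Mir29b genes was detectable at this depth. All counts of the 4 genes were on the sense strand, and the opposite strand, where Cd46 lies at the chromosome 1 pair, had 0 in both libraries.

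**Figure D2:**
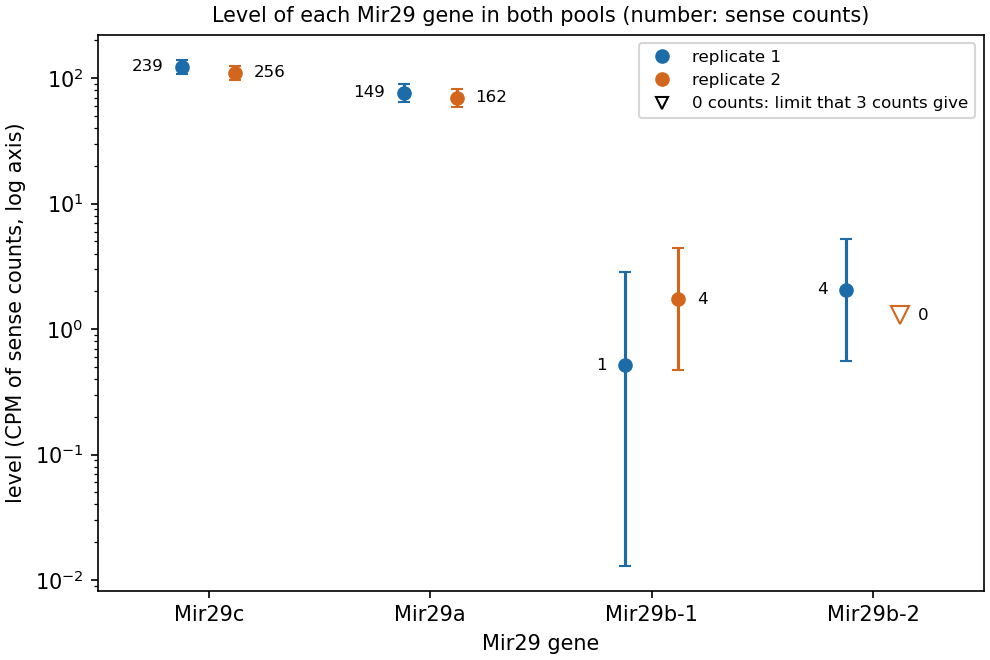
Level of each Mir29 gene in CPM of sense counts (log axis) in replicate 1 (blue) and replicate 2 (orange), with exact 95% binomial intervals and the count beside each point. Mir29c (239 and 256 counts) lies above Mir29a (149 and 162), and both Mir29b genes stay at 4 counts or fewer, with the triangle at the limit for 0 counts.

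The ratio of Mir29c to Mir29a repeated closely between the pools. It was 1.60-fold in replicate 1 (95% counting interval 1.30 to 1.98) and 1.58-fold in replicate 2 (1.29 to 1.94), a log2 difference of 0.67 ± 0.02 (SD, n = 2). This exceeded the difference of either gene between the pools. Both hairpins are 88 bases long, so the ratio per base of hairpin is the same. As levels of different sequences in a library, these values also carry differences in ligation, amplification and placement, which were not tested.

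Within each pair the counts of the Mir29b gene were far below those of its neighbour. These counts leave out reads that fit several positions, as whole miR-29b-3p reads do. On chromosome 1, Mir29c exceeded Mir29b-2 by 59.8-fold in replicate 1 (23.0 to 221). In replicate 2, where Mir29b-2 had 0 counts, the exact interval of the ratio starts at 68.9-fold. The level of 3 counts, used as a limit for 0, lay 85.3-fold below Mir29c there. On chromosome 6, Mir29a exceeded Mir29b-1 by 149-fold in replicate 1 (26.3 to 5924) and by 40.5-fold in replicate 2 (15.5 to 150). With the counts of both Mir29b genes added, 5 in replicate 1 and 4 in replicate 2, Mir29c was 47.8-fold (20.2 to 149) and 64.0-fold (24.7 to 237) higher. Of the 6 pairs of members, the pair of Mir29b genes was the 1 whose difference did not exceed the difference between the pools. It lay at a log2 ratio of -1.58 in replicate 1 and 3.17 in replicate 2, so its direction rested on the library. For every pair with a Mir29b gene, the difference of that gene between the pools, used in this comparison, rests on 0 to 4 counts.

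Together the 4 genes held 393 counts in replicate 1 and 422 in replicate 2, or 0.0202% and 0.0182% of the sense counts. Mir29c made up 60.8% (55.8 to 65.7) and 60.7% (55.8 to 65.4) of the family, and Mir29a 37.9% (33.1 to 42.9) and 38.4% (33.7 to 43.2). The Mir29b genes made up 1.27% (0.414 to 2.94) and 0.948% (0.259 to 2.41). Because reads that fit several positions are left out, these are shares of the counts and not of all Mir29 reads. The pair on chromosome 1 held 125 CPM and 110 CPM, and the pair on chromosome 6 held 77.3 CPM and 71.6 CPM. The composition of the family in these counts thus differed between the pools by less than the counting error.

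Reads that fit several positions are kept apart in the tables and belong to no gene. They numbered 1081615 in replicate 1 and 1388721 in replicate 2, which is 0.557 and 0.599 for each sense count at a microRNA gene. A read of the whole of miR-29b-3p fits both Mir29b genes, so it would be set aside and counted at neither. The genes from which the set-aside reads came are not recorded. How many were miR-29b-3p is thus not known, and their part in the low counts of the Mir29b genes was not tested. Identifiers of Mir29a and Mir29c matched GENCODE M21 with their version. Those of Mir29b-1 and Mir29b-2 matched without it, and the intervals used for counting them are not given in the sources used here.

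Genes that share mature sequences can be counted in these tables, but the reads set aside for each are not recorded. Of the 916 counted genes with a mature sequence in the RefSeq table, 53 have, like both Mir29b genes, at least 1 mature sequence identical to that of another gene and at least 1 of their own. Of these 53 genes 37 (69.8%) reached at least 10 counts in both libraries, with a median of 39.3 CPM, and Mir29b-1 and Mir29b-2 stood at places 41 and 42. Of 829 genes with no mature sequence shared in the RefSeq table, Mir29a and Mir29c among them, 276 (33.3%) reached that count. Copies missing from that table would not be seen. Of 34 genes whose mature sequences are all shared, 7 (20.6%) did. The classes also differ in which genes they hold, and genes are not replicates, so these shares are given as a description and say nothing of the reads set aside at the Mir29b genes.

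**Figure D3:**
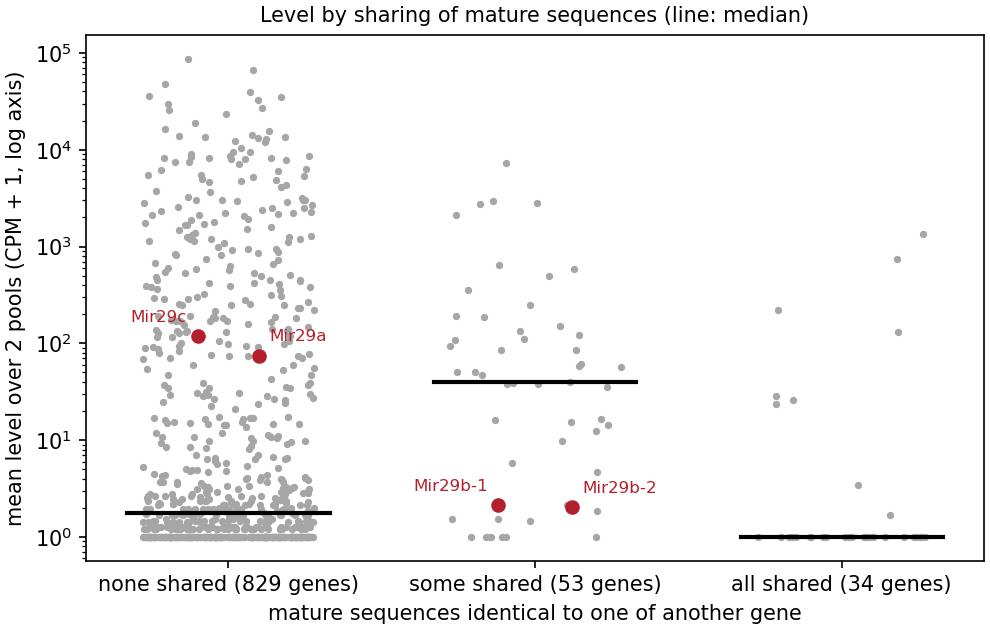
Mean level over both pools (CPM + 1, log axis) of 916 microRNA genes, with the median as a line. Genes are grouped by whether none, some or all of their mature sequences are identical to one of another gene in the RefSeq table. The Mir29b genes (red) lie below the median of 39.3 CPM of the 53 genes with some shared sequences, and Mir29a and Mir29c lie above the median of the 829 genes with none.

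Against all microRNA genes the family stood in the middle to low range of those detected. Mir29a and Mir29c reached at least 10 counts in both libraries, 2 of 4 members, while 17.8% of all 1973 genes did so. Mir29c held place 213 in replicate 1 and 217 in replicate 2, and Mir29a places 238 and 243. Among the 351 detected genes the median was 192 CPM, and 214 of them were above Mir29c and 239 above Mir29a. Because the tissue is a mixture, fewer cells of a type and less RNA per cell cannot be told apart in these levels.

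**Figure D4:**
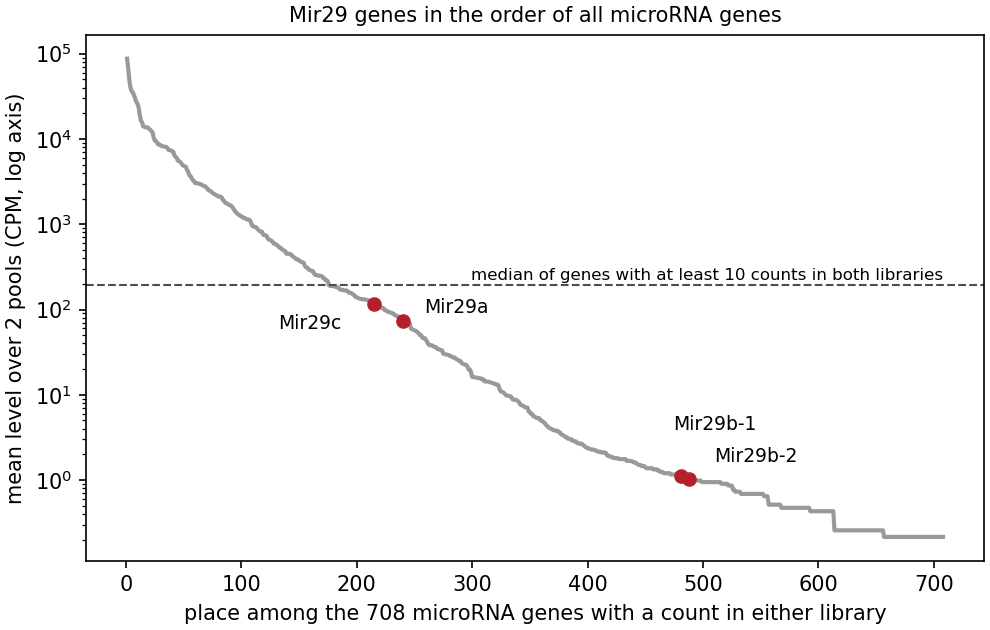
Mean level over both pools (CPM, log axis) of the 708 microRNA genes with a count in either library, in order of level, with the Mir29 genes in red. Mir29c (117 CPM) and Mir29a (73.3 CPM) lie below the median of detected genes (dashed line, 192 CPM), and both Mir29b genes lie near 1 CPM (1.12 and 1.03).

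The genes nearest to the members in level over both libraries, measured as the distance in log2(CPM + 1), are named as a description of level, since 2 libraries of 1 group hold no pattern across conditions. Nearest to Mir29c were Mir34a, a target of the tumour suppressor p53, with 247 and 258 counts, and Mir675, which is made from the imprinted H19 RNA, with 231 and 255 counts. The third was Mir128-1, known from neurons, with 241 and 274 counts. Nearest to Mir29a were Mir7j with 153 and 154 counts, Mir293 of an embryonic stem cell cluster with 138 and 170, and Mir1251 with 145 and 186. The largest of the 6 distances was 0.200, for Mir1251.

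Other microRNAs known to act on matrix genes or in fibrosis were mostly detected. Of 26 measured, 24 reached 10 counts in both libraries, against 17.8% of all 1973 genes, with a median of 418 CPM over the list. Above Mir29c lay 16 of them, and 214 of all 351 detected genes. The most abundant on the list was Mir214, which is made in mesenchyme, at 29999 ± 2093 CPM (SD, n = 2). The 26 genes of the list together held 13.0% ± 0.174 of the sense counts, and the 4 Mir29 genes 0.0192% ± 0.00145. These sums are over unlike numbers of genes, so they are not a comparison per gene. Reads that fit several positions are left out of these levels. Some genes of the list, like the Mir29b genes, share a mature sequence with another gene, so their levels can be too low.

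Among 29 measured microRNAs known, like Mir29, to rise as tissues mature, all reached 10 counts in both libraries. Their median was 677 CPM, and 19 of the 29 lay above Mir29c. The most abundant was Mir99a, of a cluster with a let-7 gene, at 48296 ± 1192 CPM. Of these genes 10 are also among the 26 matrix-associated ones. Of 20 measured microRNAs known from early embryos or dividing cells, 17 were detected, with a median of 570 CPM, and 12 lay above Mir29c. Beside both lists, 17.8% of all 1973 genes were detected, and 214 of these 351 genes lay above Mir29c. The most abundant on the list of early embryos or dividing cells was Mir17, which promotes growth, at 67180 ± 577 CPM. The median over the 4 Mir29 genes was 37.2 CPM, midway between Mir29a and Mir29b-1, and that over all 1973 genes was 0 CPM. Reads that fit several positions are left out of these levels. Some genes on both lists, like the Mir29b genes, share a mature sequence with another gene. Their levels, and the medians given here, can therefore be too low.

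Between the pools the abundant members hardly moved. The log2 ratio of replicate 2 over replicate 1 was -0.16 for Mir29c (95% counting interval -0.42 to 0.10) and -0.14 for Mir29a (-0.47 to 0.19). Neither passed 2-fold, which 1.95% of the 257 genes with a mean count of at least 100 did. Of those genes 115 had a larger difference than Mir29c and 128 a larger one than Mir29a, and the median size was 0.14. A difference of either member between the pools was therefore not detectable at this depth. The epithelium markers were lower in replicate 2, 7 of 7 with a median log2 ratio of -0.28, against 127 of all 257 genes. Of the mesenchyme markers with such a ratio 1 of 4 was lower, with a median of 0.12. The 2 heart muscle markers with such a ratio were higher, as was the 1 marker each of endothelium, skeletal muscle, erythroid cells and leukocytes. The 1 neural marker with it was lower. For the endothelium marker the log2 ratio was 0.05, below the median size over all 257 genes. The summed share of the epithelium markers was 3.31% in replicate 1 and 2.95% in replicate 2, and its part in the values of the members was not tested. For the Mir29b genes no ratio between the pools is given, because their counts were near or under the limit.

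Scaling to all reads in the file instead moved every gene by -0.26, and unmapped reads were 30.9% in replicate 1 and 38.6% in replicate 2. On that scale the log2 ratio was -0.41 for Mir29c (-0.67 to -0.15) and -0.39 for Mir29a (-0.72 to -0.06), so the intervals no longer held 0. Relative to the shift, both members moved as they did in CPM.

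**Figure D5:**
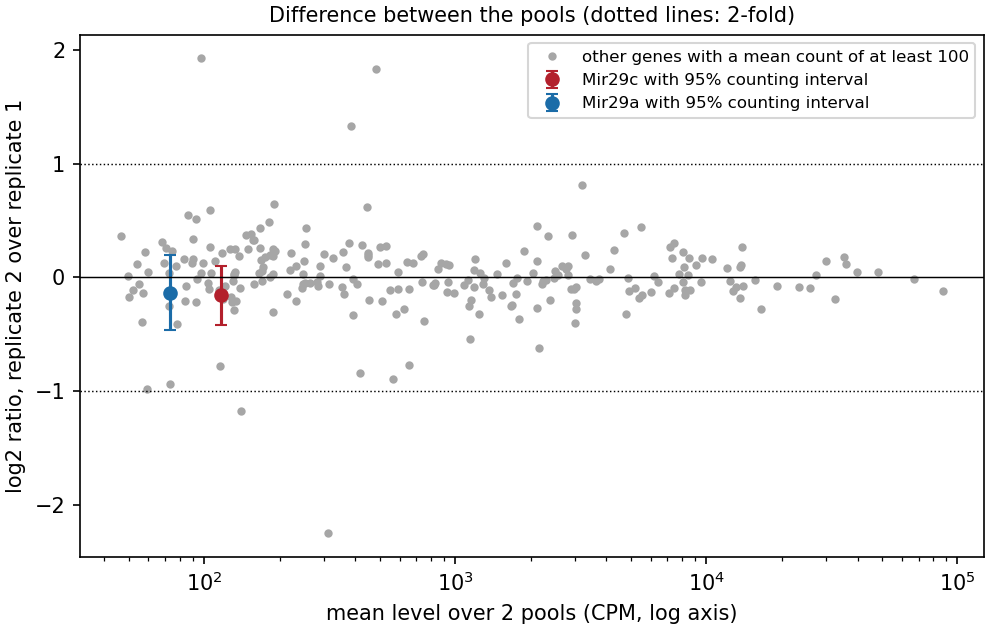
Log2 ratio of replicate 2 over replicate 1 against mean level (CPM, log axis) for 257 genes with a mean count of at least 100, with Mir29c (red) and Mir29a (blue) and their 95% counting intervals. Both members lie slightly below 0, at -0.16 and -0.14, with intervals that hold 0 and stay inside the dotted lines at 2-fold.

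The label of the tissue was set against marker microRNAs. All 5 measured mesenchyme markers and all 7 epithelium markers were detected, with 5.25% ± 0.238 and 3.13% ± 0.251 of the sense counts. The endothelium marker Mir126a held 3.97% ± 0.0981. Of the neural markers 2 of 6 were detected, with 0.128% ± 0.0193, and of the skeletal muscle markers 2 of 3, with 0.0460% ± 0.0133. These counts leave out reads that fit several positions, and some neural and mesenchyme markers have only mature sequences that another gene shares. Low counts of such markers therefore do not show that few of their cells were present. The 2 leukocyte markers held 0.0435% ± 0.00586. All 3 heart muscle markers, of which Mir208b from a myosin gene was the most abundant, were detected too. They held 0.0263% in replicate 1 and 0.0941% in replicate 2, while the Mir29 family held 0.0202% and 0.0182%. The 2 erythroid markers held 0.0264% and 0.0593%. The part of these cells in the levels of the Mir29 genes was not tested.

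What the family is known to act on can be shown by sequence, although target RNAs were not measured. The 3′ untranslated regions of 25 of 26 listed matrix genes were searched on the sense strand for TGGTGCT, the complement of the seed, and for TGGTGCTA, which contains it and adds an A. The longest region per gene was taken from GENCODE M21. The first 3 listed genes with the longer match encode fibrillar collagens, and each is shown with the match in capitals (GRCm38).
Col1a1, chr11:94952523-94952545, plus strand: gtgggaaggaatttcTGGTGCTA
Col2a1, chr15:97975681-97975703, minus strand: gcgtgtcctacacaaTGGTGCTA
Col3a1, chr1:45348967-45348989, plus strand: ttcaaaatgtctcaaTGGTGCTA
The shorter match was in 21 of 25 matrix genes (84.0%) and in 13.1% of all 20950 genes with such a region, and the longer one in 16 (64.0%) against 2.85%. The median length was 1085 bases in the list and 955 over all genes. The collagen genes Col4a3 and Col5a1 held 4 matches of the shorter kind each, the most in the list, and Col4a5, Col5a3 and elastin (Eln) held 3 each. Col1a2, Sparc, Fn1 and Serpinh1 held none in the region searched. Of 10 listed genes for DNA methylation and other functions all 10 held the shorter match, with 5 in the DNA methyltransferase gene Dnmt3a, and 8 in Tet3 and 7 in Tet1, which act in removing the mark. Their regions are longer, with a median of 3783 bases, and held 0.746 matches per kb, against 1.08 in the matrix list and 0.106 over all genes. Both lists were made of genes known as targets, so their share of matches is not independent evidence, and a match is no measurement of repression.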

How the data were processed

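Each library has 1 table of raw counts by microRNA gene, deposited by the authors. Their accompanying text names mm10 and GENCODE M4. The aligner and counter are not given in the sources used here. The tables have no header. From the values, the 3 columns hold counts of either strand, the sense strand and the opposite strand, and sense counts were used. Lines that name no gene (59.2% and 65.8% of reads) were left out of totals. Identifiers were matched to GENCODE M21 without version (1894 of 1973). Sense counts were divided by their total to give CPM. A gene with at least 10 counts in each library was called detected. The ratio between pools used 0.5 added counts and exact conditional binomial intervals, for genes with a mean count of at least 100. A difference between members was said to exceed that between pools when its size in each library did so for both members. With 1 group there was no test between conditions. As alternative scalings, TMM factors (edgeR 4.0.16) and size factors (DESeq2 1.42.0) were computed in R 4.3.3. Intervals, ratios and sequence searches ran in Python 3.11.15 with scipy 1.17.1 and pandas 2.3.3. The ratio step was tested on simulated data. Named besides the members are the 3 genes nearest in level to each detected member and the most abundant gene of each list. Single target genes were named after their values were seen. The members and lists were chosen with earlier results of these data known. Whether the pools came from separate litters is not given, so spreads may be partly technical.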

Additional observations from a re-analysis of the deposited data

How the results depend on the processing

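Of 80 alternative values, 69 were classed as within the replicate spread or on the same side of the limit, 9 as moved and 2 as past a limit. With 2 replicates, the value of either always lies within 1 SD of their mean. Values with a replicate left out are therefore among the 69 by construction and say nothing of robustness. Scaled to all reads in the file, the level of Mir29c was 44.0 and that of Mir29a 27.6 per 1000000 reads, and the family share was 0.00724%. On that scale, added after seeing the data, the log2 ratio between pools was -0.41 for Mir29c and -0.39 for Mir29a and the intervals no longer held 0. With 5 counts added, the log2 difference was 0.65 for Mir29c over Mir29a, 5.10 for Mir29c over Mir29b-1 and 4.45 for Mir29a over Mir29b-1. With 0 counts added, differences against Mir29b-2 had no value. Genes past 2-fold between pools numbered 13 with a mean count of at least 20, 3 with at least 500 and 218 without a filter, against 5 as reported. At a minimum of 1 count, 3 members were detected instead of 2, although that value was classed among the 69. Leaving out a replicate gave 110 to 123 CPM for Mir29c, 69.8 to 76.7 CPM for Mir29a, and -1.58 to 3.17 for the log2 ratio of Mir29b-1 over Mir29b-2, whose direction turned without replicate 2. TMM, DESeq2 size factors and counts of either strand changed no direction. The values of the Mir29b genes rest on 0 to 4 counts in each library. No paired analysis was possible because there is 1 group.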
